A study of Mus musculus with 9 samples.

Results

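A set of 5 genes of myeloid and mast cells were followed library by library in messenger RNA of sorted mouse bone marrow cells. They were Prtn3, Csf3r, Csf1r, Cebpa and Fcer1a, chosen by name for their known roles and with earlier results of these data known. All 5 were found by symbol among the 2402 genes of the deposited table. The labels describe 9 samples of male C57BL/6 mice in which a Flt3-driven Cre recombinase (Flt3-cre) was crossed to the mTmG reporter, so every group carried both alleles. In these FlkSwitch mice a cell is Tom+ (red) unless the Flt3 promoter has driven Cre in it or in a cell it descends from, which makes it GFP+ (green). There were 2 samples of Tom+ megakaryocyte progenitors (MkP) from old mice, 2 of GFP+ MkP from old mice, 3 of GFP+ MkP from young mice, and 2 of Tom+ stem cells (HSC), also from old mice. Young mice were 3 months old, and old mice 18 to 20 months in one label and 20 months in another. MkP were sorted as lineage-negative, cKit+, Sca1-, CD150+ and CD41+ cells, and HSC as lineage-negative, cKit+, Sca1+, CD150+ and Flk2- cells. The labels do not say whether a sample came from 1 mouse or a pool.

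The 9 rows of the table carry no sample names, so no row was matched to a sample or group and no comparison between young and old, Tom+ and GFP+, or MkP and HSC was made. Rows are called libraries 1 to 9 by their place in the table, as names only. They were divided once, by the level of Ly6a, which encodes the Sca1 antigen of the sort, at 1000 normalized counts. Ly6a lay between 21.0 and 187 in 7 libraries (1, 2, 5, 6, 7, 8 and 9), and was 4256 in library 3 and 5772 in library 4. Itga2b, which encodes the CD41 of the sort, was 45798 to 77883 in those 7 libraries, and 1616 and 6543 in libraries 3 and 4. This division assigns no label to any library. The low values of each library were whole multiples of 1 read (0.724 to 1.96 normalized counts), which gave back the reads behind each value, 1790670 to 4373460 per library over the genes of the table.

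Myeloid cells are the granulocytes, monocytes and macrophages that arise from granulocyte-monocyte progenitors, and mast cells and basophils are granular cells that carry the high-affinity receptor for IgE. C/EBPα, the product of Cebpa, is a transcription factor needed for granulocyte-monocyte progenitors to form, and PU.1 is another factor of this lineage. Early blood progenitors can carry low levels of messenger RNA of several lineages before they commit, which is known as lineage priming, and a sorted population can also hold cells of another type. In bulk samples fewer cells of a type and less RNA per cell cannot be told apart.

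Sequences before the RefSeq start of transcription are shown for 3 of the genes, because Prtn3 and Csf3r varied together and Fcer1a did not follow them in libraries 3 and 4. They come from RefSeq, build GRCm38.p6, and are written 5′ to 3′ on the strand of the gene. Promoters of 4 of the 5 genes were matched. Capitals mark GAGGAA, a core of PU.1 sites, GCAAT, a half-site of C/EBP factors, and AGATAA, a motif of GATA factors, each searched on both strands of the 250 bases before the start. The GENCODE M21 annotation starts Prtn3 and Csf3r further upstream than RefSeq does, and 53 of the 250 bases before the RefSeq start of Prtn3 and 109 of those before that of Csf3r lie in a GENCODE exon. The stretch shown for Prtn3 is the other 197 bases, which lie inside the GENCODE gene but in none of its exons. For Csf3r 30 bases around each match are shown, and both windows lie inside a GENCODE exon.
Prtn3, chr10:79879417-79879613, plus strand: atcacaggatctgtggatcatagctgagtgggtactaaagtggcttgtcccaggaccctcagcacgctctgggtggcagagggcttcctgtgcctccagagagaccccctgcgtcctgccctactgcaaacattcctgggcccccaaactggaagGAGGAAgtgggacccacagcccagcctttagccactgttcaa
Csf3r, first window, chr4:126024561-126024590, plus strand: cctccttcctgaGAGGAAggggctgtctat
Csf3r, second window, chr4:126024629-126024658, plus strand: cagggaagccaggaaggtgtcGCAATtctg
Fcer1a, chr1:173227230-173227479, minus strand: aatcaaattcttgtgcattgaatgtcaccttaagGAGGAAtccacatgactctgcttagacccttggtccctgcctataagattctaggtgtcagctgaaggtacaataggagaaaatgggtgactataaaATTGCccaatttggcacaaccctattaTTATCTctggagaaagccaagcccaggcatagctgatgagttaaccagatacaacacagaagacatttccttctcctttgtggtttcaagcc
GAGGAA was present before Prtn3, Csf3r and Fcer1a, and GCAAT before Csf3r and, on the other strand, before Fcer1a. AGATAA was present only before Fcer1a, on the other strand, and none of the 3 motifs was present before Cebpa. No 2 of these matches overlapped. Over 27025 promoters of the same length, 23.1% held GAGGAA, 23.3% held GCAAT and 10.3% held AGATAA, so the first 2 are common, and a match is a description of letters and not a site.

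The granule protease gene Prtn3 had the most reads of the 5 members and its highest values in the libraries with high Ly6a. Prtn3 encodes proteinase 3, a serine protease stored in the granules of neutrophils and monocytes and of their precursors. It had 861, 1356, 313, 452, 421, 2006 and 1767 normalized counts in libraries 1, 2, 5, 6, 7, 8 and 9. In libraries 3 and 4 it had 12248 and 11466 normalized counts, where it ranked 13th and 28th among the 2402 genes. The 7 libraries with Ly6a below 1000 did not overlap with libraries 3 and 4, and in the nearest of them, library 8, Prtn3 had rank 379. Among the 7, the highest (library 8) was 6.41 times the lowest (library 5), with an exact 95% counting interval from 5.66 to 7.28. The order of levels was resolved by counting for 7 of the 8 neighbouring pairs of libraries, the exception being libraries 6 and 7 (ratio 1.07, interval 0.911 to 1.27). All such intervals cover counting error only, since the reads carry no molecular identifiers. In the GENCODE M21 annotation of mm10, Prtn3 is protein-coding and lies at chr10:79874476-79883174 on the plus strand, and Plppr3 on the other strand overlaps it.

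Csf3r, the receptor for granulocyte colony-stimulating factor, which drives the growth and maturation of neutrophils, had its extremes in nearly the same libraries as Prtn3 at a much lower read number. It had 23.0, 84.4, 13.0, 6.99, 6.14, 116 and 120 normalized counts in libraries 1, 2, 5, 6, 7, 8 and 9, against 668 and 862 in libraries 3 and 4. Libraries 2, 8 and 9 were high among the 7, and libraries 5, 6 and 7 were low, with 12, 5 and 4 reads. The highest of the 7, library 9, was 19.5 times the lowest, library 7 (interval 7.46 to 72.3), a ratio of 31.9 with reads scaled to their total over the table and 11.2 with 5 added to each value. Neighbours in this order were not separated among libraries 9, 8 and 2, nor among libraries 1, 5, 6 and 7, but library 2 was 3.67 times library 1 (interval 1.97 to 7.27). Csf3r lies at chr4:126024550-126044440 on the plus strand and no annotated gene overlaps it.

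**Figure D1:**
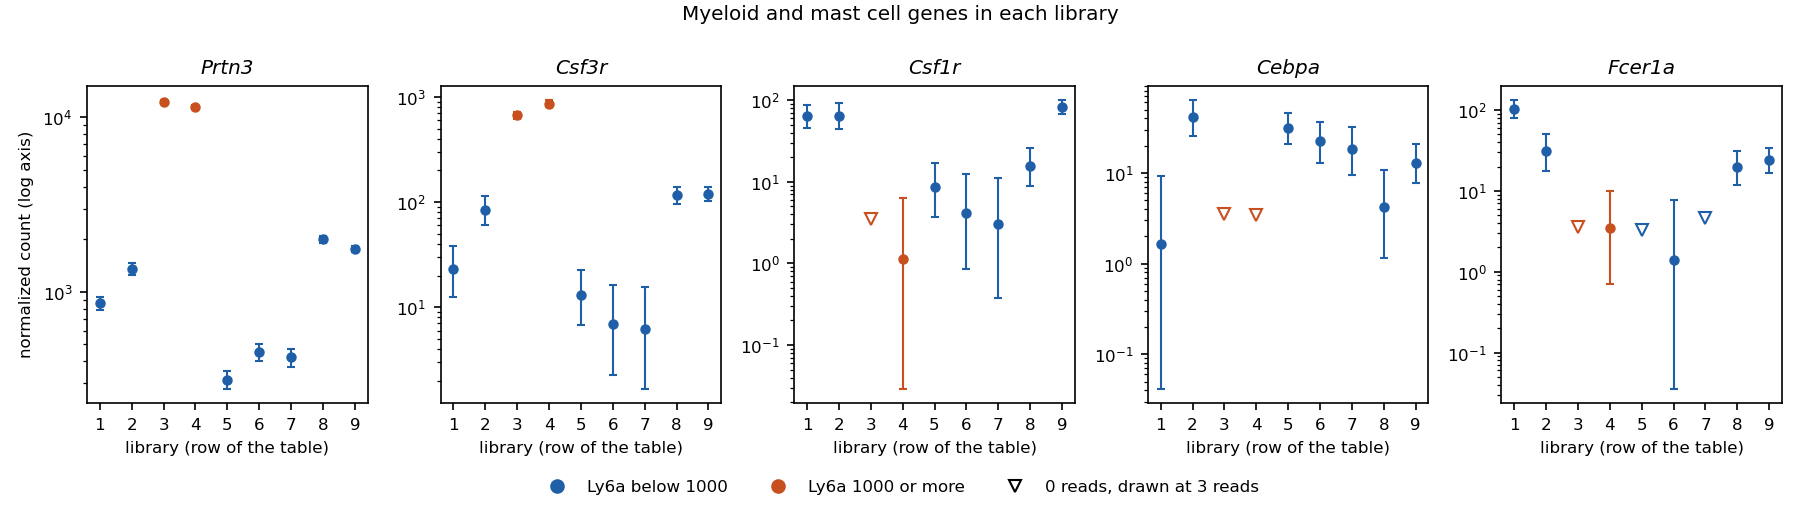
Normalized counts on a log axis (y) of Prtn3, Csf3r, Csf1r, Cebpa and Fcer1a in each of the 9 unnamed libraries (x); bars are exact 95% counting intervals of the reads, blue points are libraries with Ly6a below 1000, orange points those above, and open triangles are 0 reads drawn at the value of 3 reads. Prtn3 and Csf3r peak in libraries 3 and 4 (12248 and 862 at most), where Csf1r and Cebpa have 1 read or none.

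Csf1r, the receptor for macrophage colony-stimulating factor on monocytes and macrophages, ran the other way in libraries 3 and 4. It had 64.0, 64.8, 8.69, 4.20, 3.07, 15.7 and 82.6 normalized counts in libraries 1, 2, 5, 6, 7, 8 and 9, against 0 in library 3 and 1.14, or 1 read, in library 4. Libraries 1, 2 and 9 stood above the rest, with 39, 33 and 114 reads, and were not separated from each other by counting. Library 1 was 4.07 times the next one, library 8 (interval 2.19 to 7.94), and below it no neighbouring pair was separated. The highest of the 7, library 9, was 26.9 times the lowest, library 7, which had 2 reads (interval 7.28 to 225). The ratio was 41.2 with reads scaled to their table total and 10.9 with 5 added to each value. The value of 0 in library 3 has an exact upper limit of 4.35 normalized counts, and 3 reads there are worth 3.54. Csf1r lies at chr18:61100598-61132149 on the plus strand and overlaps Hmgxb3 on the other strand and a microRNA gene.

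Cebpa was low in every library and had an order of its own. It had 1.64, 41.2, 31.5, 22.4, 18.4, 4.19 and 13.0 normalized counts in libraries 1, 2, 5, 6, 7, 8 and 9, and 0 in libraries 3 and 4. Libraries 5, 6 and 7, which were low in the other members, were high here (29, 16 and 12 reads), and libraries 1 and 8 were low (1 and 4 reads). Of the neighbouring pairs only libraries 9 and 8 were separated, the first being 3.11 times the second (interval 1.02 to 12.6). The highest of the 7, library 2, was 25.1 times the lowest, library 1, which had a single read (interval 4.04 to 1039), and 9.83 times the lowest without library 1. With 1 added to each value the ratio was 16.0, and with 5 added 6.96. The counts of 0 have exact upper limits of 4.35 and 4.22 normalized counts in libraries 3 and 4. Cebpa is a single-exon gene at chr7:35119293-35121928 on the plus strand, overlapped by the antisense gene Gm45091.

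Fcer1a, the α chain of the high-affinity IgE receptor that marks mast cells and basophils, was concentrated in library 1. It had 103, 31.4, 0, 1.40, 0, 19.9 and 23.9 normalized counts in libraries 1, 2, 5, 6, 7, 8 and 9, against 0 and 3.43 in libraries 3 and 4. Libraries 1, 2, 8 and 9 had 63, 16, 19 and 33 reads, and none of the other 5 libraries had more than 3. Library 1 was 3.29 times library 2 (interval 1.88 to 6.10), libraries 2, 9 and 8 were not separated in order, and library 8 was 5.81 times library 4 (interval 1.71 to 30.6). Set against the worth of 3 reads in library 7, which had 0 reads, Fcer1a in library 1 was 22.4 times higher. This ratio leaves out counting error. The counting interval of Fcer1a was 79.4 to 132 in library 1, and exact upper limits were 4.01 and 5.66 in libraries 5 and 7. Without library 1 the ratio was 6.82. Fcer1a lies at chr1:173221284-173227214 on the minus strand with no overlapping gene. The labels do not say whether counting used strand, so reads of Prtn3, Csf1r and Cebpa cannot be told apart from those of their overlapping genes, none of which has a column in the table.

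Reads of all 5 members differed between the 9 libraries beyond counting error (chi-square test with Benjamini-Hochberg adjustment over 2243 genes with at least 5 expected reads in every library), but so did those of 99.1% of the genes tested. Among the 7 libraries with Ly6a below 1000 the same test called 5 of 5 members and 88.2% of 2075 genes. The largest adjusted p of a member there was 2.42e-08 for Cebpa. The size of the test statistic among the 7 libraries placed Prtn3 at the 92.1st percentile of the genes tested, Csf3r at the 63.9th, Fcer1a at the 62.9th, Csf1r at the 59.0th and Cebpa at the 36.6th, a ranking that also grows with read number. These tests compare libraries, not conditions, and the calls of the members are at the background of the table.

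The members divided into 3 kinds by libraries 3 and 4. Prtn3 and Csf3r (2 of 5) were higher in both than in any of the 7 libraries, as were 50.4% of the 2243 genes. Csf1r and Cebpa (2 of 5) were lower in both than in any of the 7, as were 41.8% of genes, and Fcer1a was neither, since libraries 5 and 7 had 0 reads. Both shares are near those of all genes tested. How the genes of the table were chosen is not known, so its shares may not hold for genes outside it. Among the 7, libraries 5, 6 and 7 held the 3 lowest values of Prtn3, Csf3r, Csf1r and Fcer1a (4 of 5 members), an order found in 15.3% of 2075 genes and chosen here after the values were seen. The reverse order, with libraries 5, 6 and 7 the 3 highest, held for none of the members and for 24.7% of genes, and Cebpa had neither. With reads scaled to their total over the table the order still held for 4 members, and for 30.7% of genes. Libraries 5, 6 and 7 (2931805 to 3854998 reads in the table) each had more reads than libraries 1, 2 and 8 (1868577 to 2749320) and fewer than library 9 (4373460), and the part of read number in this order was not tested.

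Profiles of the members were set against each other by the root mean square difference of log2(normalized count + 1), each gene centred on its mean over the 7 libraries. The smallest difference among the 10 pairs was 0.798 between Prtn3 and Csf3r, followed by 1.14 between Csf3r and Csf1r and 1.20 between Prtn3 and Csf1r. The largest was 3.46, between Cebpa and Fcer1a. Libraries 1 and 8 set Csf1r apart from Csf3r. Library 1 was among the top 3 for Csf1r and below the top 3 for Csf3r, while library 8 was among the top 3 for Csf3r and below them for Csf1r. Library 1 was also the highest for Fcer1a and the lowest for Cebpa.

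**Figure D2:**
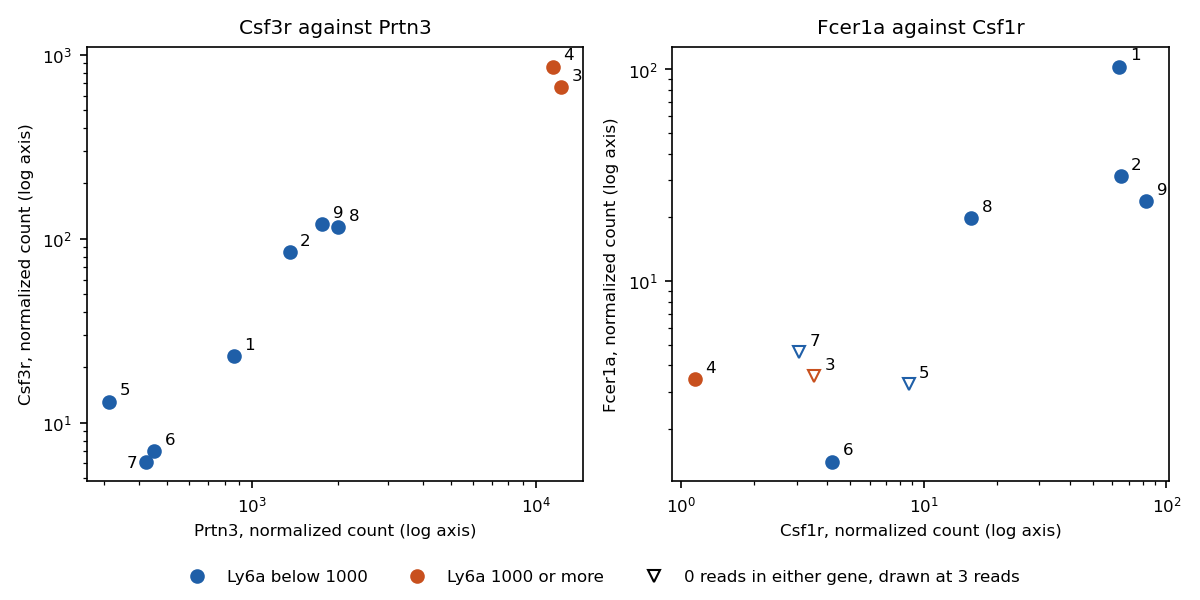
Csf3r against Prtn3 (left panel) and Fcer1a against Csf1r (right panel), in normalized counts on log axes, 1 point per library with its number; blue points have Ly6a below 1000, orange points 1000 or more, and open triangles have 0 reads in either gene, drawn at the worth of 3 reads. Csf3r and Prtn3 are both lowest in libraries 5, 6 and 7 and both highest in libraries 3 and 4. Fcer1a and Csf1r are also lowest in libraries 5, 6 and 7 among those with Ly6a below 1000. They are highest in libraries 1, 2 and 9 and near 0 reads in libraries 3 and 4.

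The genes with profiles most like the members over the 7 libraries were taken from 1995 others. For Prtn3 the nearest was Gstm1, a glutathione S-transferase, with a difference of 0.128. Gstm1 had 814, 1221, 290, 383, 428, 2224 and 1513 normalized counts in libraries 1, 2, 5, 6, 7, 8 and 9, and 21253 and 13404 in libraries 3 and 4, which the measure did not use. Lair1, an inhibitory receptor for collagen on leukocytes, was next with 0.252, and Pbx3, a homeodomain transcription factor, had 0.288. All of these had their 3 lowest values in libraries 5, 6 and 7.

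For Csf3r the nearest profiles were those of S100a6, a calcium-binding protein (0.384), and Slfn2, a member of the Schlafen family (0.459). S100a6 had 20.0 to 535 normalized counts in the 7 libraries, and 1506 and 2179 in libraries 3 and 4. For Csf1r they were Slc11a1, a metal transporter of macrophage phagosomes (0.369), the lysosomal protease gene Ctsh (0.576), and the column Tnfsf12Tnfsf13 (0.628). Slc11a1 had 49.2, 72.6, 5.43, 5.59, 4.61, 19.9 and 96.3 normalized counts in libraries 1, 2, 5, 6, 7, 8 and 9, and 3.54 and 1.14 in libraries 3 and 4, so it was low there too. Ctsh was not, with 281 and 247 in libraries 3 and 4 against 9.79 to 161 in the 7.

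The nearest to Cebpa were Hist1h3h, a histone gene (0.600), Dgke, a diacylglycerol kinase (0.656), and Paqr9 (0.688), all at 37.3 normalized counts or less in the 7 libraries. For Fcer1a they were BC100303 (1.25), Slc11a1 (1.26) and Csf1r itself (1.26). The measure weighs low read numbers like high ones, so distances of Cebpa and Fcer1a include counting error of a few reads.

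**Figure D3:**
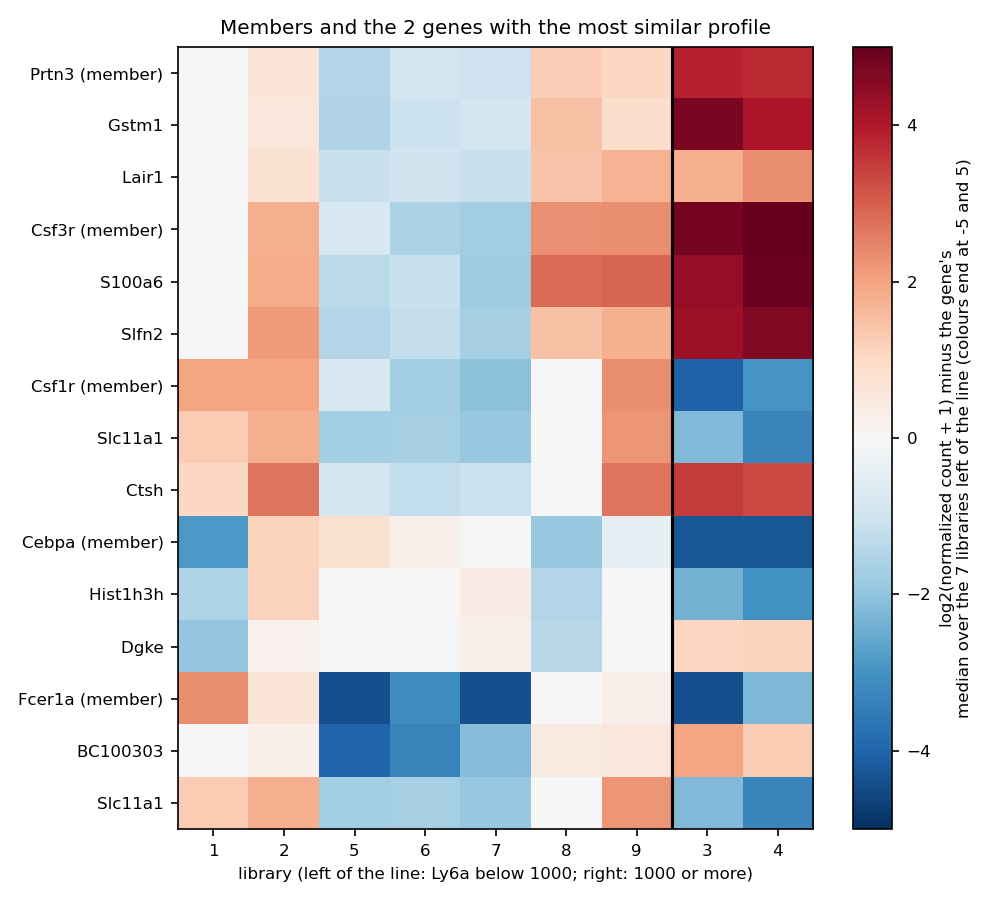
Each member with the 2 genes whose profile over the 7 libraries with Ly6a below 1000 was most like it (rows), in the 9 libraries (columns, with libraries 3 and 4 to the right of the line); colour is log2(normalized count + 1) minus the median of the gene over the 7 libraries, ending at -5 and 5. Gstm1 follows Prtn3 in all 7, at a difference of 0.128, while Ctsh and Csf1r part in libraries 3 and 4.

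Other myeloid genes were described from 8 lists of which few members had a column in the table. Of 22 granule proteins, 3 were measured and 19 were not analysed here. Cst7, the protease inhibitor cystatin F, and Nkg7, a granule membrane protein of cytotoxic cells, had an order unlike that of Prtn3. Cst7 had 36.7 to 953 normalized counts in the 7 libraries, lowest in library 8, and 5.90 and 9.15 in libraries 3 and 4. Nkg7 had 2153 to 27162 in the 7, again lowest in library 8, and 185 and 667 in libraries 3 and 4.

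Among myeloid cytokine receptors and their signalling genes 8 of 27 were measured, and 6 of the 7 tested differed between the 7 libraries, as did 88.2% of all genes tested. Jak3, a kinase that signals for cytokine receptors, had 351 to 2186 normalized counts there, highest in library 8, and 4061 and 4939 in libraries 3 and 4. Cish, an inhibitor of such signalling that is induced by it, had 39.2 to 425, also highest in library 8, and 583 and 776 in libraries 3 and 4.

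Of 19 myeloid transcription factors 6 were measured, and 5 of 5 tested differed between the 7 libraries, against the same background of 88.2%. Myb, which sustains immature progenitors, had 246 to 455 normalized counts in the 7 libraries, and 699 and 1032 in libraries 3 and 4. Irf5, an interferon regulatory factor of macrophages, had 27.6 to 67.4 in the 7, and 123 and 60.6 in libraries 3 and 4. Id2, an inhibitor of helix-loop-helix factors, had 6.14 to 55.8 in the 7, and 460 and 638 in libraries 3 and 4.

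Of 26 monocyte and macrophage markers 4 were measured, and their summed level over the 7 libraries was lowest in library 7 (84.4 normalized counts) and highest in library 9 (306). The sum in libraries 3 and 4 was 169 and 96.1, inside that range, but nearly all of it there was Sirpa (169 and 91.5). Fcgr4, an IgG receptor, had its 3 highest values in libraries 9, 2 and 1 (17.4, 11.8 and 9.84), the top 3 libraries of Csf1r. It had 1.09 to 4.20 in libraries 5, 6, 7 and 8, and 0 and 3.43 in libraries 3 and 4. The values in libraries 2 and 1 stand for few reads, at 1.96 and 1.64 normalized counts per read. Whether counting separates them from the lower libraries was not tested. Sirpa, a receptor that restrains phagocytes, had 55.3 to 177 normalized counts in the 7 libraries and was highest in libraries 2 and 9. It had 169 and 91.5 in libraries 3 and 4, inside the range of the 7 and unlike Csf1r. Cd5l, a secreted protein of tissue macrophages, had 6.29 to 39.8 in the 7, lowest in library 8, and 0 in libraries 3 and 4. Its order among the 7 was not that of Csf1r, with 21.3 and 15.7 in libraries 1 and 2 and 22.4 to 24.6 in libraries 5, 6 and 7.

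Of 21 neutrophil markers 3 were measured. Beside Csf3r, Cxcr2, a chemokine receptor of mature neutrophils, had 0, 53.0, 8.69, 6.99, 6.14, 4.19 and 58.7 normalized counts in libraries 1, 2, 5, 6, 7, 8 and 9, and 1.18 and 5.72 in libraries 3 and 4. It was high in libraries 2 and 9 alone, and low in library 8, where Csf3r was near its highest of the 7. Il1b, an inflammatory cytokine, had 21.7 to 102 in the 7, highest in library 1, and 0 and 2.29 in libraries 3 and 4. The eosinophil list had 1 measured gene of 11, the granule ribonuclease gene Ear2, with 9.84, 108, 1.09, 0, 6.14, 3.15 and 84.7 normalized counts in libraries 1, 2, 5, 6, 7, 8 and 9, and 0 in libraries 3 and 4. Ear2 and Cxcr2 shared libraries 2 and 9 as their highest.

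Of 26 mast cell and basophil genes 6 were measured, most of which other blood cells also use. Lat, an adaptor of immune and platelet receptors, had 5932 to 11337 normalized counts in the 7 libraries, and 1371 and 1501 in libraries 3 and 4. Syk, a kinase of the same receptors, had 232 to 464 in the 7, and 57.8 and 61.8 in libraries 3 and 4. Slc18a2, which loads amines into granules, had 55.3 to 363 in the 7, highest in library 8, and 707 and 461 in libraries 3 and 4. None of the 3 had library 1 as its highest, as Fcer1a had. The dendritic cell list had 1 measured gene of 15, the interferon-induced membrane gene Bst2, with 113 to 177 normalized counts in the 7, and 505 and 428 in libraries 3 and 4.

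**Figure D4:**
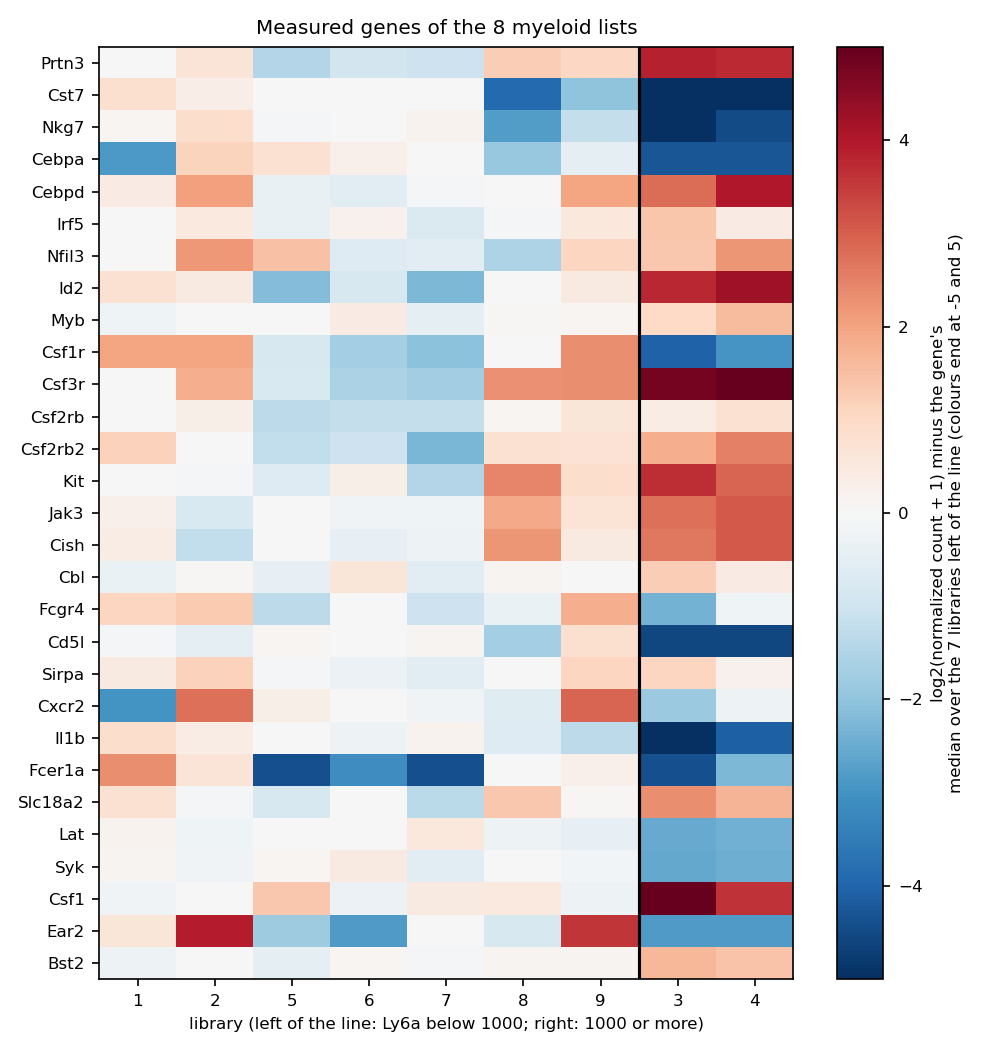
Measured genes of the 8 myeloid lists (rows) in the 9 libraries (columns, with libraries 3 and 4 to the right of the line); colour is log2(normalized count + 1) minus the median of the gene over the 7 libraries with Ly6a below 1000, ending at -5 and 5. Csf1r is high in libraries 1, 2 and 9 and Ear2 in libraries 2 and 9, and both are low in libraries 3 and 4. Prtn3, Csf3r, Id2 and Jak3 are highest in libraries 3 and 4.

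Markers of other cells were measured beside the members. Summed over 15 of 23 megakaryocyte and platelet genes, the level was 154044 to 275139 normalized counts in the 7 libraries, lowest in library 9, and 20660 and 29691 in libraries 3 and 4. In libraries 3 and 4 most of this sum was Fermt3 (9269 and 11817) and Rap1b (5628 and 6624). The sum of 5 of 21 erythroid genes was 7161 to 9713 in the 7, and 510 and 535 in libraries 3 and 4. Most of it was the water channel gene Aqp1 (5422 to 8514 in the 7), and the blood group gene Rhd, named after its values were seen, had 212, 665, 1187, 744, 768, 3.15 and 98.5 in libraries 1, 2, 5, 6, 7, 8 and 9, and 4.72 and 9.15 in libraries 3 and 4. Rhd and 2 other genes of this list, Ermap and Add2, were thus lowest of the 7 in library 8, with 3.15, 10.5 and 2.10 normalized counts, and highest in library 5, with 1187, 352 and 113. The rest of the measured genes of this list, Aqp1 and Hemgn, went the other way between these libraries. Aqp1 had 8514 in library 8, its highest of the 7, and 6486 in library 5, and Hemgn had 1184 and 991. For 12 of 18 stem cell genes, Ly6a included, the sum was 1922 to 13515 in the 7, highest in library 8 and lowest in library 6, and 55184 and 46850 in libraries 3 and 4. Most of the sum in library 8 was Trim47 (9887). Among the 7, Ly6a and Hlf were highest in library 9 (187 and 39.8, against 71.3 and 37.7 in library 8), and the other measured stem cell genes in library 8. Leaving out Ly6a, which set the division, 11 of 11 stem cell genes were higher in libraries 3 and 4 than in any of the 7, as were 50.4% of all genes, and 15 of 15 megakaryocyte genes were lower, as were 41.8% of all genes. With reads scaled to their table total this held for 14 of the 15 megakaryocyte genes (not Fli1), and with median-of-ratios scaling for 9 of the 11 stem cell genes (not Tie1 and Hoxb5). The 3 measured of 14 T and NK cell markers summed to 9.79 to 93.3 in the 7, and 538 and 514 in libraries 3 and 4. Most of the latter was Klrb1c (493 and 469), with Lck at 44.8 and 43.5. Cd4 went the other way, with 0 and 1.14 there and up to 39.8 in the 7. The sum of 2 of 11 stromal and endothelial markers was 4.20 to 48.2 in the 7, and 1213 and 2110 in libraries 3 and 4. Vpreb1, the 1 measured gene of 12 B lineage markers, did not exceed 12.3. The part of any other cell type in the levels of the members was not tested.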

How the data were processed

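The series holds RNA-seq of 9 samples sorted by flow cytometry. RNA was isolated with Trizol and turned into libraries with NEBNext Ultra reagents, per the labels' protocols. Bowtie2, STAR, DESeq and the mm10 build are named in the submitters' processing notes, with no role or version. The sources used here do not say how reads were counted and scaled or how genes were chosen. The deposited table holds a scaled signal, normalized counts, for 2402 genes (columns). Its 9 rows have no names and hence no group, mean or SD.

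Each library's step was found from its low values, and 100% of these were whole reads within a tolerance of 0.1. Reads were tested per gene against 1 rate with a chi-square test in SciPy 1.17.1, adjusted over all genes with at least 5 expected reads in every library, at 0.05. Poisson intervals and conditional binomial intervals of ratios are exact at 95% and cover counting error only. Where a ratio needed a value for a count of 0, the worth of 3 reads was used. This is a chosen floor that lies below the exact upper limit of 0 reads. Lists were matched by symbol. Genes named by rule are the members, the sort markers, the 3 genes of highest median in each of the 8 myeloid lists (all where 5 or fewer were measured), and the 3 genes with the most similar profile among those with a median of at least 10. Genes from the lists of other cells, such as Aqp1, Trim47 and Klrb1c, were named outside these rules. Some genes taken by these rules are not reported here. The members and lists were chosen with earlier results of these data known. The steps were tested on simulated data. Other scalings, filters, pseudocounts and leaving out each library were tried as alternatives.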

Additional observations from a re-analysis of the deposited data

How the results depend on the processing

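Scaling reads to their table total moved single libraries by -0.56 to 0.64 on the log2 scale, highest in library 3, and median-of-ratios scaling by -0.52 to 0.19, lowest in library 3. The counts of members differing between libraries (5 and 5), past 4-fold among the 7 libraries (5) and in each library order (2, 2 and 4) came out the same in number under every alternative tried for them (both scalings, no read filter, Ly6a limits of 500 and 200, and each library left out). The limits of 500 and 200 chose the same 7 libraries, whose highest Ly6a was 187, so they could not change a count. Leaving out a library cannot break a library order, so it was no check of the counts of 2, 2 and 4. Of the 15 lists, 7 had a summed level that ranged 4-fold or more among the 7 libraries, and 10 when scaled to the table total. The share of all genes with libraries 5, 6 and 7 lowest was less stable, 15.3% as deposited, 30.7% scaled to the table total and 13.1% with median-of-ratios scaling. The share of genes lowest in libraries 3 and 4 was 41.8%, 24.3% and 42.6% under these settings, and the share highest there 50.4%, 55.2% and 37.8%.

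Ratios of the highest to the lowest library were less firm. Of 76 recomputed ratios 6, all of Prtn3, left their counting interval. Of 54 recomputed ratios that as deposited were set against the worth of 3 reads, 17 moved by more than the counting error of the highest library. Those with a pseudocount did not use this floor, and without library 3 the Csf1r ratio was set against 1 read in library 4. Over the 7 libraries with Ly6a below 1000, the Prtn3 ratio was 9.31 scaled to the table total, 4.77 without library 5 and 5.65 without library 8. Scaled to the table total, the ratio was 31.9 for Csf3r (19.5 as deposited) and 41.2 for Csf1r (26.9). With a pseudocount of 5 it was 11.2 for Csf3r, 10.9 for Csf1r and 6.96 for Cebpa (25.1), all inside the counting intervals of the deposited values. The ratio for Fcer1a against the worth of 3 reads was 32.9 scaled to the table total, 6.82 without library 1 and 31.7 without library 7. With a pseudocount of 1 the Fcer1a ratio was 104. Over 9 libraries Prtn3 ranged 39.1-fold as deposited, 77.6-fold scaled to the table total and 28.6-fold with median-of-ratios scaling. Cebpa (101 reads in all), Fcer1a (135) and Csf1r (215) are limited by read number. No paired analysis was possible because the rows carry no sample names or replicate numbers.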
